A study of Zea mays with 6 samples.

Results

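Among maize genes that were well expressed in the developing leaf, had a long locus and lay outside chromosome 4, 83 differed at least 2-fold between the hda108 mutant and wild type. They were chosen from the deposited leaf table by their own values, and that table lists 39604 genes. A gene had to lie on chromosomes 1 to 3 or 5 to 10, span at least 1600 bp, be listed above 0 in both genotypes and have a mean of at least 5 FPKM (a read count corrected for transcript length and library size). Its log2 difference, hda108 minus wild type, was taken after adding 0.5 FPKM to both values and had to reach 1 in either direction. The first 4 conditions left 10524 genes, called the class here. Of these 0.789% differed 2-fold, 49 higher in hda108 (0.466%) and 34 lower (0.323%). Because the rule used the difference itself, these counts describe the choice and test nothing.

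The libraries were made from the 11th leaf, collected while still wrapped, of greenhouse plants at vegetative stage 8. Wild-type plants and plants homozygous for hda108 (hda108/hda108) gave 3 strand-specific libraries of total RNA each, depleted of ribosomal RNA. The labels name no other allele, background or treatment for either genotype. Each genotype has a single deposited value per gene, in which the authors pooled its libraries, so no difference below has a replicate check, an SD or a p-value, and the depth is unknown.

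The mutated gene was lower in the pool labelled hda108. GRMZM2G136067, a histone deacetylase gene, is listed as HDA108 in the RefSeq table, with the synonym hd1b. It had 10.9 FPKM in wild type against 3.06 FPKM in hda108, 28.1% of the wild-type value. The tissue label was checked against marker genes. The meristem and stem homeobox genes kn1 and lg3 had at most 0.0462 FPKM in either genotype, and gnarley1 was listed at 0 in both. Of 4 mesophyll markers, 3 have a name in the RefSeq table (pep1, pdk1 and mdh6). Their values summed to 1469 FPKM in wild type against 675 FPKM in hda108. Most of this sum was pdk1 (1111 and 455 FPKM), itself among the lower genes chosen by their difference. The mesophyll sum is therefore not independent of that choice. Of the other named markers, pep1 had 167 and 85.6 FPKM and mdh6 had 191 and 134 FPKM, wild type first. The mesophyll marker without a name, GRMZM2G121878, was taken as ca1. It had 325 FPKM in wild type against 169 FPKM in hda108 (log2 difference -0.94) and is not itself one of the chosen genes. Of 4 bundle sheath markers, the 3 with a name (me3, rbcs1 and rca1) summed to 658 and 354 FPKM. Of these, rbcs1 and rca1 lie on chromosome 4, which the rule left out.

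Histone deacetylases remove acetyl groups from histones, and their loss can change the transcription of genes in either direction, directly or through other regulators. The wrapped maize leaf is a growing tissue in which cells pass from division to expansion and then build the C4 cycle, which concentrates carbon dioxide by passing acids between mesophyll and bundle sheath cells. The enzymes of this cycle become abundant as the leaf cells mature. Only 13 of the 83 genes carried an informative name in the RefSeq table, 5 of the higher and 8 of the lower genes. The other 70 are given by identifier.

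The higher genes had between 2.22 and 116 FPKM in wild type, with a median of 6.64, and between 7.26 and 319 FPKM in hda108, with a median of 16.5. In wild type 19 of these 49 genes were below 5 FPKM. The lower genes had between 6.95 and 1111 FPKM in wild type (median 16.8) and between 2.84 and 455 FPKM in hda108 (median 6.55). The median of the mean of both values was 11.4 FPKM for the higher genes, 11.7 FPKM for the lower genes and 12.9 FPKM for the class. The largest differences were upward, but the medians were closer. The median log2 difference was 1.25 for the higher and -1.18 for the lower genes, and over all compared genes it was 0.06. At least 3-fold differences were listed for 8 higher and 2 lower genes, and at least 4-fold differences for 6 higher and 0 lower genes.

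**Figure D1:**
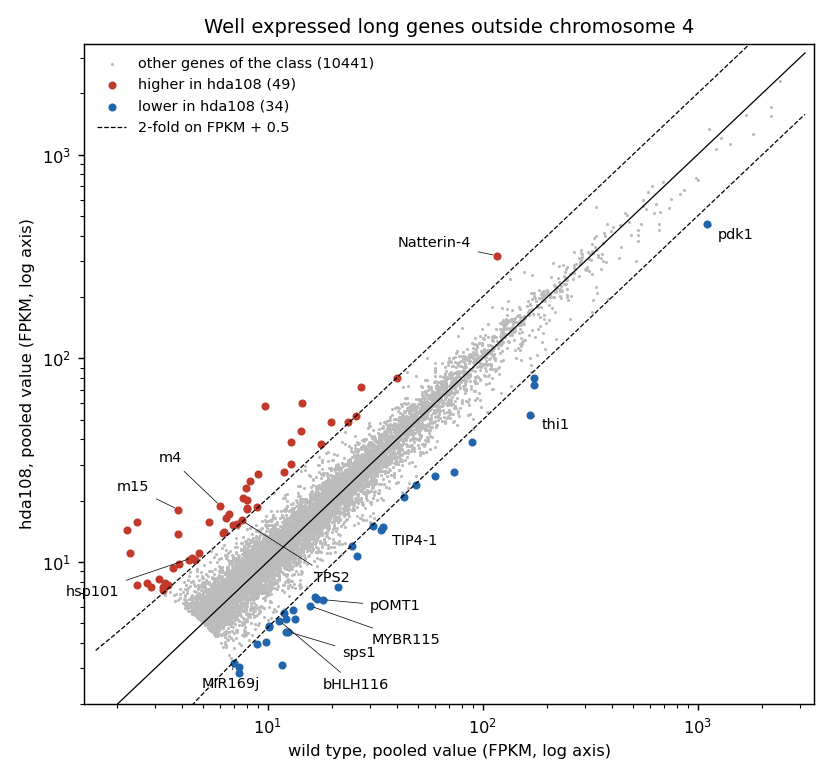
Pooled values of wild type (x axis) and hda108 (y axis) in FPKM, both on log axes, for the 10524 genes of the class. Red points are the 49 higher and blue points the 34 lower genes, the solid line is equality and the dashed lines are 2-fold on FPKM + 0.5. The point of pdk1 stands apart at 1111 FPKM in wild type, and that of Natterin-4 at 319 FPKM in hda108.

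Genes of leaf carbon metabolism stood among the named lower genes. The gene pdk1 (GRMZM2G306345, chromosome 6, 146179403 to 146189965, B73 RefGen_v3), which encodes pyruvate phosphate dikinase, the enzyme that regenerates the carbon acceptor of the C4 cycle, had 1111 FPKM in wild type against 455 FPKM in the mutant. That is 2.44-fold lower on the scale of FPKM + 0.5, on which all folds here are given. The 34 lower genes together had 2335 FPKM in wild type against 965 FPKM in hda108, so pdk1 carried the largest share of their sum. In the same direction, pOMT1 (GRMZM2G383088, chromosome 10, 28396446 to 28402412), a plastid carrier that exchanges 2-oxoglutarate and malate, had 18.1 FPKM in wild type against 6.52 FPKM in hda108 (2.65-fold lower). For sps1 (GRMZM5G875238, chromosome 8, 161465832 to 161471194), which encodes sucrose phosphate synthase, an enzyme that commits carbon to sucrose, wild type had 12.4 FPKM and hda108 4.54 FPKM (2.56-fold lower).

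Related genes lay just short of the threshold. For me3, which encodes NADP-malic enzyme, wild type had 384 FPKM and hda108 196 FPKM (log2 difference -0.97), and for pep1, which encodes phosphoenolpyruvate carboxylase, the values were 167 and 85.6 FPKM (-0.96). Both work in the C4 cycle. The plastid dicarboxylate carrier gene pDCT2 had 42.4 FPKM in wild type against 22.0 FPKM in hda108 (-0.93). Much the same ratio was listed for pdrp1, the gene of the protein that switches pyruvate phosphate dikinase on and off, with 105 and 54.6 FPKM (-0.93). The pair pDCT2 and pdrp1 was chosen after its values had been seen. All 4 of these genes met the conditions of span and level and missed only that of the difference.

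Light-harvesting and photosystem genes, which mark how far a leaf has greened, were also lower but by less. Of the 9 genes of that list in the class, 8 were below 0, with a median log2 difference of -0.36, and none passed 2-fold. Their values summed to 7468 FPKM in wild type against 6104 FPKM in hda108. The list was filled by symbol, so an entry such as psat1 (-0.26) need not be a photosystem gene. By comparison, the median over the class was 0.06, and 4163 of 10524 genes were below 0. The part of leaf maturity, or of the mesophyll and bundle sheath share, in the lower values was not tested. The mesophyll sum given above was mostly pdk1, itself a lower gene, so it is no independent measure of that share. In bulk tissue fewer cells of a type and less RNA per cell cannot be told apart.

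Thiamine synthesis was represented by thi1 (GRMZM2G018375, chromosome 8, 137677255 to 137679026), for an enzyme that makes the thiazole part of the vitamin. It had 167 FPKM in wild type against 52.8 FPKM in hda108, a 3.14-fold difference and the largest among the named lower genes. A second gene of this kind, thi2 (GRMZM2G074097), which is not among the 83, had 122 FPKM in wild type against 67.4 FPKM in hda108, a log2 difference of -0.85. Both copies were therefore lower in hda108, and thi1 by more. The aquaporin gene TIP4-1 (GRMZM2G103945, chromosome 6, 133537404 to 133539720), for a water channel of the vacuole membrane, had 33.7 FPKM in wild type against 14.3 FPKM in hda108, a 2.32-fold difference.

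Of the 8 named lower genes, 3 are regulators by name. The gene MYBR115 (GRMZM2G049378, chromosome 8, 148179995 to 148182680), of the MYB-related transcription factors, had 15.8 FPKM in wild type against 6.07 FPKM in hda108 (2.48-fold lower). For bHLH116 (GRMZM2G042895, chromosome 10, 76600001 to 76602213), a basic helix-loop-helix factor, the values were 11.3 and 5.14 FPKM (2.10-fold lower). The entry of the microRNA precursor MIR169j (chromosome 2, 193348715 to 193353246) had 6.95 FPKM in wild type against 3.19 FPKM in hda108. Members of the miR169 family target mRNAs of NF-YA transcription factors in plants. MIR169j shares its locus entry with GRMZM2G078124, which went the other way (3.44 and 4.97 FPKM). The value of MIR169j and its span are therefore uncertain.

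Unnamed loci supplied the remaining lower genes, and the largest difference among them. GRMZM2G009232 (chromosome 1, 60678271 to 60680833) had 11.7 FPKM in wild type against 3.12 FPKM in hda108, 3.36-fold lower. Next came GRMZM2G027478 with 21.3 and 7.49 FPKM, which shares its locus entry with a gene below 0.5 FPKM in both genotypes. GRMZM2G001696, the bundle sheath marker taken as pck1 and an entry of the C4 list below, had 73.3 and 27.5 FPKM. GRMZM2G538535 had 12.2 and 4.51 FPKM, and GRMZM2G326270 had 16.9 and 6.57 FPKM. These 5 genes and 5 named ones (thi1, pOMT1, sps1, MYBR115 and pdk1) were the 10 with the largest downward differences, all between 2.44-fold and 3.36-fold.

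Abundant transcripts were also found among the unnamed lower genes. GRMZM5G828630 (chromosome 1, 141745663 to 141747718) had 173 FPKM in wild type against 80.2 FPKM in hda108. GRMZM2G070605 (chromosome 8, 29719076 to 29725061) had 173 and 73.5 FPKM, and shares its entry with GRMZM2G372870, which had 5.80 and 7.30 FPKM. GRMZM2G138258 on chromosome 3 had 89.1 and 38.9 FPKM. Together with pdk1 and thi1 these were the 5 most abundant lower genes. The 15 lower genes not named here had 7.36 to 60.3 FPKM in wild type and 2.84 to 26.3 FPKM in hda108, and differed by 2.02-fold to 2.42-fold.

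The MADS-box genes m15 and m4 led the named higher genes. Both are of the APETALA1/FRUITFULL type, regulators that act when a shoot turns from making leaves to making flowers. The gene m15 (GRMZM2G553379, chromosome 5, 6993293 to 7011505) had 3.84 FPKM in wild type against 18.1 FPKM in hda108, a 4.28-fold difference. The related gene m4 (GRMZM2G032339, chromosome 1, 277218150 to 277298925) had 6.01 FPKM in wild type against 18.9 FPKM in hda108, a 2.98-fold difference. Their values in the mutant were thus close to each other. Their loci were among the longest of the higher genes, at 18.2 kb for m15 and 80.8 kb for m4. In the opposite direction m5 (GRMZM2G171365), which carries the synonym SOC1 of another flowering regulator, had 10.4 FPKM in wild type against 5.32 FPKM in hda108 (-0.91), short of the threshold. The MADS-box list, filled by name, had 10 genes in the class, of which m4 and m15 passed 2-fold. The more abundant m28 had 47.5 FPKM in wild type against 55.8 FPKM in hda108 (0.23). The median of the list was 0.11 and 8 of 10 were above 0, beside 0.06 and 60.4% over the class. However, 2 of the 10 are named as myosins and were caught by a short symbol. Both are above 0 (0.12 and 0.04), as are m4 and m15, which were chosen by their difference. The 2 below 0 were m5 and m20, the latter with 40.4 FPKM in wild type against 24.7 FPKM in hda108 (-0.70).

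The chaperone gene hsp101 (GRMZM2G360681, chromosome 6, 160816569 to 160820239), for a protein that takes apart aggregates after heat, had 4.44 FPKM in wild type against 10.4 FPKM in hda108, 2.22-fold higher. Of 8 heat shock genes in the class it was the only one past 2-fold. Hsp70 (GRMZM2G310431) had 54.9 and 99.8 FPKM (0.86), and hsp70-4 had 306 and 281 FPKM (-0.12). The list was above 0 in 7 of 8 genes, with a median of 0.19, beside 60.4% above 0 and a median of 0.06 over the class.

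Of the genes named TPS2, a symbol used both for terpene synthases and for trehalose phosphate synthases, GRMZM2G046615 (chromosome 5, 71292781 to 71295610) had 7.59 FPKM in wild type against 16.0 FPKM in hda108. It passed 2-fold narrowly, with a log2 difference of 1.03 that was 0.97 once the median over all genes was moved to 0. The other locus of that name, GRMZM2G123277, had 8.06 and 8.01 FPKM. Genes with a TPS symbol, which may be of either kind, were below 0 in 6 of 7 cases in the class, with a median of -0.10. These 6 lay between -0.33 and -0.01, and only GRMZM2G046615 was above 0. Natterin-4 (GRMZM2G134264, chromosome 2, 102766800 to 102769426) was the most abundant of the higher genes, with 116 FPKM in wild type against 319 FPKM in hda108, a 2.74-fold difference.

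**Figure D2:**
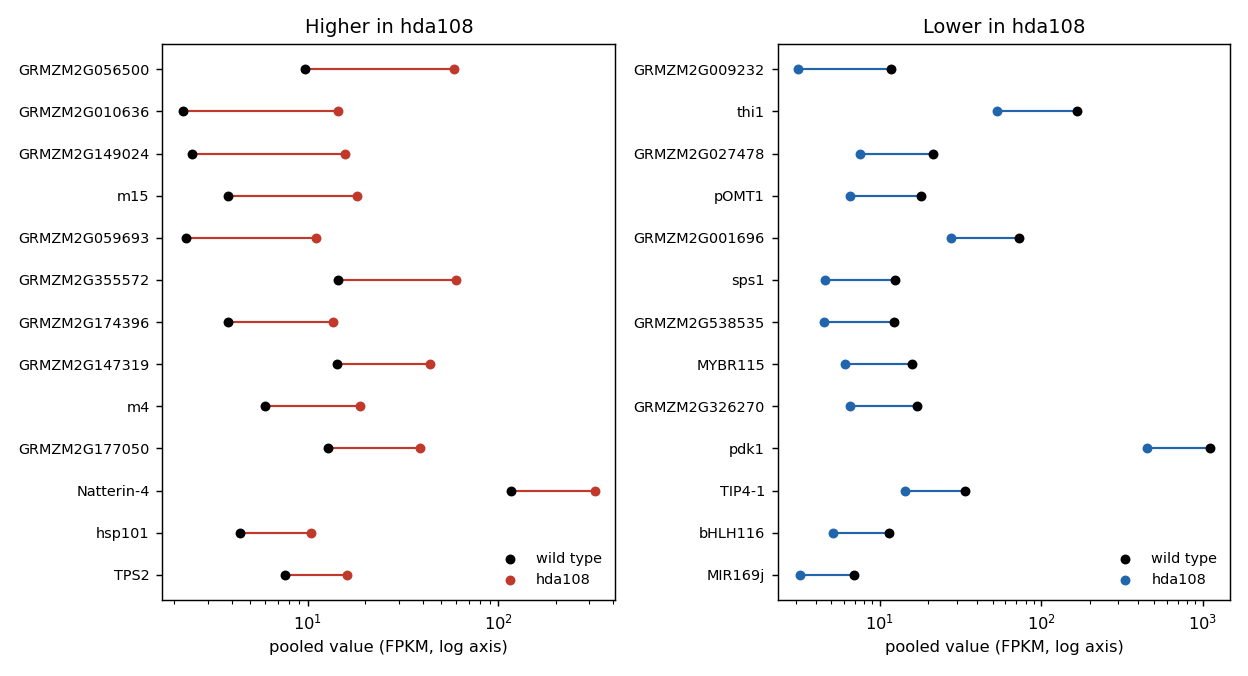
Pooled values in FPKM (log axis) in wild type (black) and hda108 (coloured) for the 10 genes with the largest difference in each direction and the other genes with a name. No bar shows an error, since there is 1 value per genotype. The widest gap on this axis is that of GRMZM2G010636 among the higher genes, whose plain ratio is 6.47, and pdk1 lies farthest to the right among the lower genes.

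The largest upward differences belonged to unnamed loci. GRMZM2G056500 (chromosome 2, 103380501 to 103382701) had 9.67 FPKM in wild type against 58.3 FPKM in hda108, a 5.78-fold difference. GRMZM2G010636 (chromosome 5, 48243630 to 48248608) had 2.22 and 14.4 FPKM, 5.47-fold higher. Close to it stood GRMZM2G149024 (chromosome 1, 256720151 to 256721893) with 2.48 FPKM in wild type against 15.8 FPKM in hda108, 5.45-fold higher. Of these 3 genes only GRMZM2G056500 was above 5 FPKM in wild type. After m15, a 4.14-fold difference was listed for GRMZM2G059693 (2.30 and 11.1 FPKM) and a 4.06-fold difference for GRMZM2G355572 (14.4 and 60.1 FPKM).

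Smaller differences among the 10 largest were those of GRMZM2G174396 (3.82 and 13.6 FPKM), GRMZM2G147319 (14.3 and 43.9 FPKM) and GRMZM2G177050 (12.8 and 38.8 FPKM). Among abundant loci, GRMZM2G170400 (chromosome 6, 162503095 to 162507889) had 27.1 FPKM in wild type against 72.6 FPKM in hda108. GRMZM6G735128 (chromosome 9, 119776248 to 119777942) had 39.8 and 80.4 FPKM. The 29 higher genes not singled out by the rule for naming had 2.46 to 19.6 FPKM in wild type and 7.26 to 48.5 FPKM in hda108, and differed by 2.06-fold to 2.89-fold.

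Values near the threshold changed without a break. Just inside it on the higher side were GRMZM6G735128 (1.01), GRMZM2G177229 (1.01) and GRMZM2G413006 (1.03), and just outside it GRMZM2G037209 (0.99), SIP1-2 (0.99) and GRMZM2G113191 (0.97). On the lower side GRMZM2G050570 (-1.001), GRMZM2G086242 (-1.01) and GRMZM2G081268 (-1.01) were just inside, and GRMZM2G079759 (-0.99), GRMZM2G051151 (-0.98) and me3 (-0.97) just outside. Most of the class was far from either side. Within 1.5-fold lay 10086 genes (95.8%), while 175 genes were 1.5-fold to 2-fold higher and 180 were 1.5-fold to 2-fold lower. Past 2-fold 49 genes stood against 34, a balance that depended on scaling and span. It was 41 against 41 once the median over all genes was moved to 0, 41 against 39 with quantile normalization and 15 against 16 among loci of at least 3000 bp.

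The 83 genes had short loci for this class, although the rule had already removed those under 1600 bp. The median span was 2273 bp for the higher genes and 2804 bp for the lower genes, against 4676 bp for the class. Spans under 2500 bp were found for 29 of 49 higher genes (59.2%) and 13 of 34 lower genes (38.2%), and for 14.5% of the class. Read the other way, 2.76% of the 1523 class genes under 2500 bp passed 2-fold, against 0.559% between 2500 and 4000 bp, 0.517% between 4000 and 7000 bp and 0.282% of those longer still. Of 1523 short loci 1.90% were higher and 0.854% lower. At 7000 bp and over it was 0.106% and 0.176%.

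Short loci had the highest share at each level. Under 2500 bp the share past 2-fold was 3.46% at a mean of 5 to 10 FPKM, 2.48% at 10 to 20 FPKM and 2.33% at 20 FPKM and over. Between 4000 and 7000 bp the corresponding shares were 0.545%, 0.442% and 0.562%. Genes 1.5-fold to 2-fold higher made up 4.53%, 2.01%, 0.747% and 0.917% of the 4 span bins, from short to long, and genes lower by that much 3.55%, 1.86%, 1.32% and 1.06%. The shortest bin was thus highest in both bands. On chromosome 4, which the rule left out, 6.62% of 151 such short loci and 1.63% of 306 loci of 7000 bp and over passed 2-fold. What goes with span in this table was not tested.

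**Figure D3:**
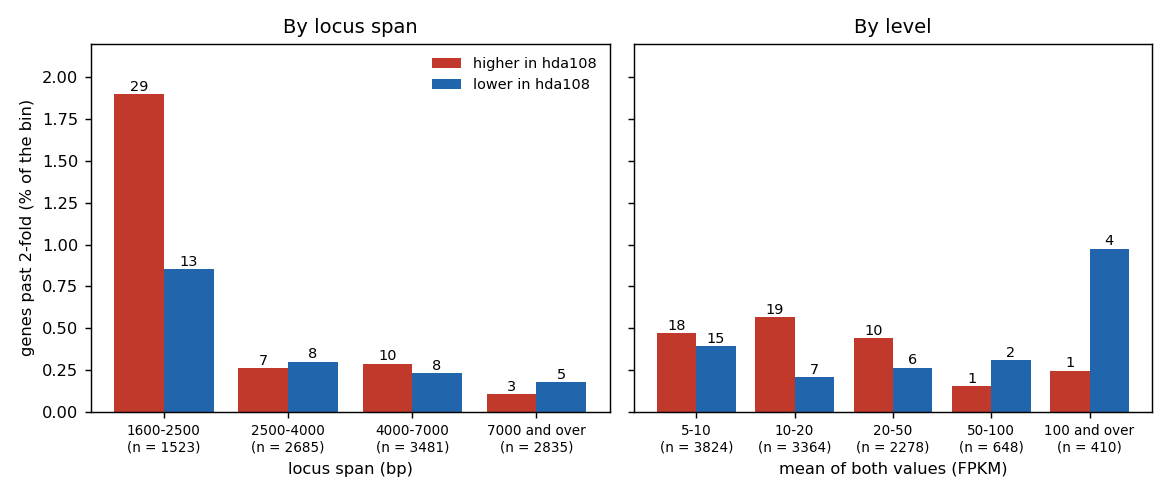
Share of class genes past 2-fold (y axis, percent of the bin) by locus span in bp (left) and by mean level in FPKM (right), with red bars for genes higher and blue bars for genes lower in hda108. Numbers above bars are genes and n is the class genes in a bin. The bars at 1600 to 2500 bp, 1.90% and 0.854%, are the tallest by span, and the 4 lower genes at 100 FPKM and over make 0.976% of that bin.

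By level the shares varied less. They were 0.863% of genes with a mean of 5 to 10 FPKM, 0.773% at 10 to 20 FPKM, 0.702% at 20 to 50 FPKM, 0.463% at 50 to 100 FPKM and 1.22% of 410 genes at 100 FPKM and over. In that last bin 4 genes were lower (pdk1, thi1, GRMZM5G828630 and GRMZM2G070605) and 1 was higher (Natterin-4). Between 10 and 20 FPKM the balance was the opposite, with 19 higher and 7 lower.

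Chromosomes differed in their balance of directions. Chromosome 2 held 9 higher and 2 lower genes and chromosome 5 also held 9 and 2, whereas chromosome 1, with 1897 class genes, held 4 higher and 8 lower. The higher genes of chromosome 2 include GRMZM2G068590 and GRMZM5G842686, which share a locus entry. They also include 3 genes of a single stretch described below. Chromosome 10 held 0 higher and 3 lower genes among 775, which was also the lowest share in all (0.387%). The highest was 1.19% on chromosome 7, with 6 higher and 5 lower. On chromosome 4, where HDA108 lies, the same conditions gave 13 higher (1.11%) and 18 lower genes (1.54%) of 1169, a share of 2.65%. These numbers are small, and whether chromosomes differ was not tested.

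**Figure D4:**
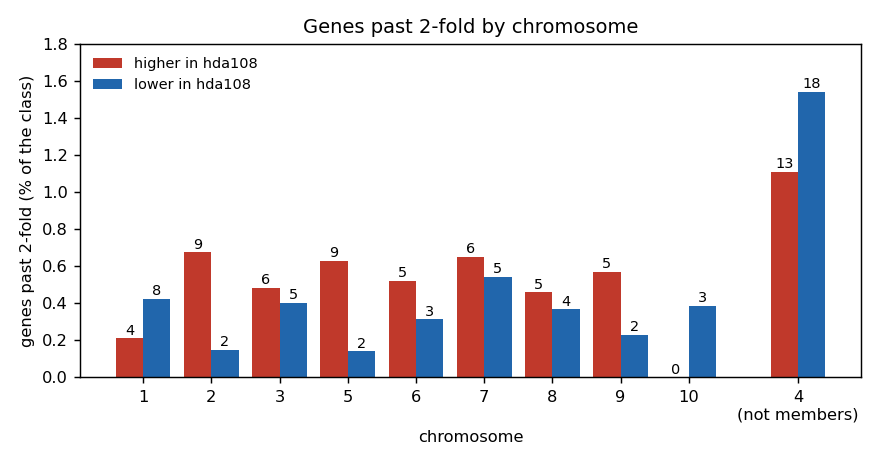
Share of class genes past 2-fold (y axis, percent) on each chromosome (x axis), with red bars for higher and blue bars for lower genes and the number of genes above each bar. Chromosome 4 is drawn apart because the rule left it out. It holds 13 higher and 18 lower genes of 1169, while chromosomes 2 and 5 each hold 9 higher and 2 lower.

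Most of the 83 genes stood alone along the chromosomes. Within 100 kb of each other lay only 2 pairs. One is GRMZM2G068590 and GRMZM5G842686 on chromosome 2 (61504553 to 61506258), which share a locus entry and match the same RefSeq gene, so they are not independent loci. Their values were 23.6 and 48.7 FPKM and 8.04 and 20.1 FPKM, wild type first. The other pair is GRMZM2G147319 (14.3 and 43.9 FPKM) and GRMZM2G010740 (3.87 and 9.71 FPKM) on chromosome 9 (23019887 to 23072481), 47.7 kb apart, with no class gene between them. Within 1 Mb there were 6 pairs of consecutive genes, 5 with both higher and 1 with both lower. The higher ones include the pair with the shared entry and the pairs of the chromosome 2 stretch described below. Of all 74 consecutive pairs, 46 had the same direction (62.2%). Whether neighbours share a direction more often than other pairs of the 83 genes was not tested.

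The nearest class genes on either side were distributed much like the class. Around the higher genes, 62 of 98 flanking genes were above 0 (63.3%), with a median of 0.07. Around the lower genes 42 of 68 were above 0 (61.8%), with a median of 0.07, and none of them was itself among the 83. Over the whole class 60.4% were above 0 and the median was 0.06.

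One stretch on chromosome 2 was the exception. Between 102088002 and 103382701, 5 consecutive class genes were all higher in hda108. GRMZM2G105233 had 2.46 FPKM in wild type against 7.68 FPKM in hda108 (1.47), Natterin-4 differed by 1.45 and GRMZM2G056500, the largest difference of all 83 genes, by 2.53. Between them lay GRMZM2G097802, with 10.5 and 15.2 FPKM (0.51), and GRMZM2G090028, with 3.92 and 7.32 FPKM (0.82). The stretch holds 10 listed genes in all. Of the 6 with a mean of at least 1 FPKM, 5 were above 0, and the sixth, GRMZM2G360907, had 1.14 and 1.09 FPKM. The 12 class genes on either side had log2 differences between -0.45 and 0.93, with a median of 0.05 and 16 of 24 above 0.

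**Figure D5:**
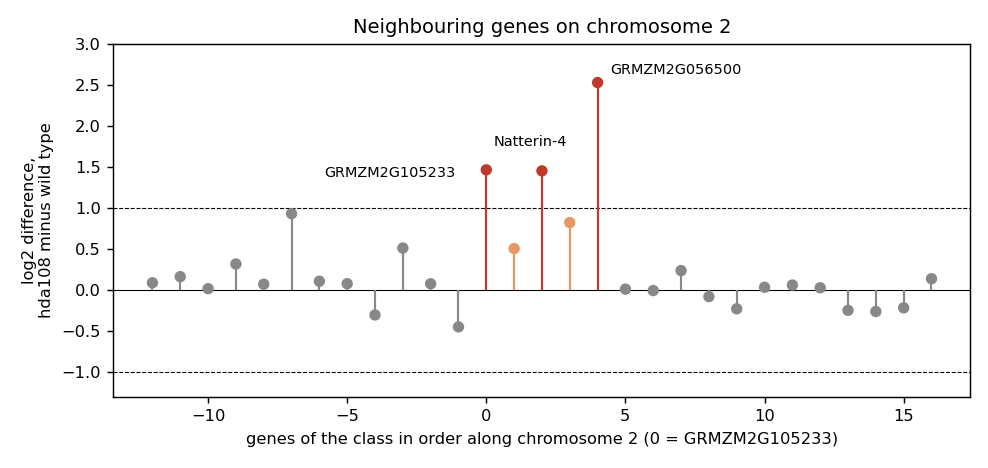
Difference between hda108 and wild type in log2(FPKM + 0.5) on the y axis, positive where hda108 is higher, for 29 consecutive class genes of chromosome 2 in their order (x axis). Red points are genes past 2-fold, orange points the 2 class genes between them and grey points 12 genes on either side, and dashed lines mark a difference of 1 in either direction. The 5 genes from 0 to 4 are all at 0.51 or above, and the genes next to them on either side are at -0.45 and 0.01.

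No other stretch of the class was as long. When runs of consecutive class genes were counted that all differed by at least 0.5 in the same direction, there was 1 run of 5 genes, 4 runs of 3 genes, all upward, and there were 10 upward and 15 downward pairs. Some of these hold genes that share a locus entry. The runs of 3 from GRMZM2G068590 and from GRMZM2G115834 each contain 2 genes of the same entry. In the downward pairs from GRMZM2G019404 and from GRMZM2G101617 both genes have shared entries. The limit of 0.5 was set after the stretch had been seen, and the rule's own contrast enters it, so the count is a description.

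Gene lists by name or identifier gave few further members. Of 28 lists, 9 held at least 1 of the 83 genes, 18 had class genes but none of the 83, with 145 list entries in all, and 1 had no class gene. The C4 list had 8 of 8 entries below 0 and 2 past 2-fold (pdk1 and GRMZM2G001696), with a median of -0.95, although 2 entries are other loci that share the symbol PDK1 (-0.08 and -0.25). In the sucrose and starch list sps1 was the 1 of 13 genes past 2-fold. There 9 were below 0 and the median was -0.06, and the abundant sucrose synthase gene sus1 had 749 and 608 FPKM (-0.30). Filled by symbol, that list also took in Agpat4 (0.14), which need not belong to it. The MYB list had MYBR115 past 2-fold among 16 genes, with 10 above 0 and a median of 0.09. The bHLH list had bHLH116 among 11, with 8 above 0 and a median of 0.11. Over the class 60.4% were above 0 and the median was 0.06. The thiamine list had thi1 among 4, of which 2 were thiolases. The cytochrome P450 list contained pdk1 only because a synonym of that gene begins with the same letters. The same letters brought in GRMZM2G097457, which carries the synonym PPDK2 of a further pyruvate phosphate dikinase gene and had 8.06 and 4.46 FPKM (-0.79). The 3 entries with P450 names stayed within 2-fold, at -0.41 to -0.19.

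Exactly 1 RefSeq entry matched 33 of 49 higher genes (67.3%), 27 of 34 lower genes (79.4%) and 77.7% of the class. Of the matched genes, 33 higher and 25 lower ones are annotated as protein coding. A locus entry was shared with another listed gene by 3 higher and 4 lower genes (6.12% and 11.8%), against 7.35% of the class. The shared entries belong to GRMZM2G068590, GRMZM5G842686 and GRMZM2G110423 among the higher genes, and to GRMZM2G027478, GRMZM2G070605, MIR169j and GRMZM2G086242 among the lower genes. Without shared entries 46 higher and 30 lower genes were left.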

How the data were processed

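The deposited table gives FPKM values per gene, 1 for wild type and 1 for hda108, made by the authors from 3 libraries of each genotype. Per the submitters' processing notes, the tools included TopHat2 2.0.13, Cufflinks and Cuffdiff 2.2.1, together with SAMtools, CASAVA 1.8 and Trimmomatic 0.33, and the build was B73 RefGen_v3. Their roles, settings and any scaling between libraries are not given in the sources used here. The column named as homozygous was read as hda108. Depth is unknown.

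Of 39604 genes, 35086 lie on the 9 chromosomes used, 23906 of these span at least 1600 bp (end minus start), 19669 are above 0 in both genotypes and 10524 have a mean of at least 5 FPKM. Counting both end bases left 83 members too. The planned test between libraries could not be run on pooled values, so differences are described by size.

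Names come from the RefSeq table of Zm-B73-REFERENCE-NAM-5.0, and coordinates from the deposited table. Named were genes with an informative name, the 10 largest differences and 5 highest means in each direction, 3 genes on each side of the threshold, and pairs within 100 kb. Others were chosen after their values were seen. The members and lists were chosen with earlier results of these data known. Alternatives covered the pseudocount, 3 scalings, level, span, shared entries and chromosome 4. Values were computed with pandas 2.3.3 and numpy 2.4.6 in Python 3.11.15, intervals with scipy 1.17.1, and figures with matplotlib 3.10.9. One meristem marker is not reported here.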

Additional observations from a re-analysis of the deposited data

Results flagged for a closer look

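A single otherwise eligible entry was left out of the comparison because it was listed at 0 in wild type. The entry of the microRNA precursor MIR394a (chromosome 5, 193871919 to 193877163) had 10.2 FPKM in hda108, a signal in values that the fold comparison does not use. It shares its locus entry with another gene, and a listed 0 can be a failed estimate, so no fold is given.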

How the results depend on the processing

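Counts of the 49 higher and 34 lower genes followed the limits of level and span. Higher genes numbered 92 with a mean of at least 2 FPKM, 31 with at least 10 FPKM, 166 without a filter on low values, 74 with spans of at least 1000 bp, 15 with at least 3000 bp and 108 without a limit on span. Lower genes numbered 53, 19, 70, 44, 16 and 61 in the same order, and 52 with chromosome 4 included. The share of higher genes, 59.0% as reported, was 70.3% without a filter on low values and 48.4% from 3000 bp. After the median over all genes (0.06) was moved to 0 there were 41 higher and 41 lower genes, with quantile normalization 41 and 39, and with upper quartile scaling 47 and 35. A pseudocount of 1 left 42 and 27, and one of 0.1 gave 55 and 36. Of 78 values of the 13 named genes under other pseudocounts and scalings, 74 stayed past 2-fold. The 4 others were TPS2 (GRMZM2G046615) at 0.98 with a pseudocount of 1, 0.97 with the median set to 0 and 0.98 with quantile normalization, and MIR169j at -0.92 with a pseudocount of 1. The causes were not tested. No paired analysis was possible because each genotype has a single pooled value, and for the same reason no replicate could be left out.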

Other observations

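Of the 4 upward runs of 3 class genes, a pair contained none of the 83 genes. On chromosome 8, GRMZM2G146206 had 43.7 FPKM in wild type against 63.7 FPKM in hda108, GRMZM2G339736 had 4.10 and 6.58 FPKM and Hsp70 (GRMZM2G310431) had 54.9 and 99.8 FPKM, all between 168296434 and 168509902. On chromosome 6, GRMZM2G101625 had 4.69 and 8.97 FPKM, GRMZM2G479746 had 29.5 and 46.2 FPKM and GRMZM2G094581 had 9.50 and 13.6 FPKM, between 32466297 and 32893725.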
